A study of Saccharomyces cerevisiae with 177 samples.

Results

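The 10 nuclear genes of branched-chain amino acid synthesis in budding yeast that are described here are ILV1 (YER086W), ILV2 (YMR108W), ILV6 (YCL009C), ILV5 (YLR355C), ILV3 (YJR016C), BAT1 (YHR208W), BAT2 (YJR148W), LEU4 (YNL104C), LEU9 (YOR108W) and LEU1 (YGL009C), out of 5794 genes in the deposited tables. They were chosen by gene identifier for their place in the pathway, and LEU2 was left out because it served as a selectable marker in some strains. Isoleucine, valine and leucine are built largely by a shared set of mitochondrial enzymes. Ilv1 turns threonine into the keto acid that starts the isoleucine branch, acetolactate synthase, reductoisomerase and dehydratase then work on both the isoleucine and the valine branch, and a leucine branch leaves the valine precursor through alpha-isopropylmalate. The zinc-cluster regulator Leu3 binds palindromic sites built from CCGG repeats, activating its targets when alpha-isopropylmalate is present and repressing them without it, while Gcn4, made when amino acids are scarce, binds TGACTC-type sites before many amino acid synthesis genes.

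The study measured newly made RNA, labelled for 5 minutes with 4-thioU, in Saccharomyces cerevisiae grown at 30 °C in synthetic complete medium, in 177 libraries of 60 groups lettered A, B and C as replicates (3 groups have 2 libraries). In 22 degron strains a tagged protein was depleted with 3-indoleacetic acid (3IAA) and set against the same strain given DMSO. The tagged proteins were the Mediator subunits Med1, Med5, Med7, Med9, Med10, Med12, Med14, Med15, Med16, Med17, Med19, Med31 and Cdk8 (tagged as SRB10), the TFIIH subunit Ccl1, the pairs Med1 with Med5, Med2 with Med15, Med15 with Med16 and Med15 with Taf1, and 4 plasmid-borne parts of Mediator subunits named Med14C, TID, Med7C and Med7N. Mediator links activators to RNA polymerase II, and Med2, Med3, Med15 and Med16 belong to the tail module that activators contact. The degron strains carry the OsTIR gene driven by the GPD1 promoter and an IAA7 fusion, which is a mini degron for Med9, Med17, for Med16 in the double strain and on the Med14C, Med7C and Med7N plasmids. The genotype label of the Med31 libraries names a MED19 degron, so those libraries are given here as labelled Med31.

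The control groups also include a Med15_Spt7 degron strain, used here for levels alone. The deletion strains med15del (gal11 deleted) and med16del (sin4 deleted) were set against WT, which like them carries no OsTIR. The mutants Med7_EWE3 and med7N_del were set against Med7_WT, Med21_EWE4 against Med21_WT and Med6_delH1 (residues 13 to 20 of Med6 removed) against Med6_WT. In the stress experiment the Med15 degron strain was given the treatments that the labels call SM and HS, without spelling them out, each with IAA or DMSO, next to DMSO without stress. All strains are MAT alpha and carry leu2, ade2, his3, lys2, met15, trp1 and ura3 alleles. Many carry RPB3-3xFlag. The degron strains without it are Med9, Med19, Med31, Med15_Med16, Med15_Taf1, Med15_Spt7, TID, Med7C and Med7N. The deletion strains, the other mutants and their controls WT, Med7_WT, Med21_WT and Med6_WT lack it too. A LEU2 copy is named in the labels of Med14C, TID, Med7C, Med7N, Med15_Taf1, Med15_Spt7, Med7_WT, Med7_EWE3 and the Med21 and Med6 groups. The label of med7N_del names none. The labels do not say whether replicate libraries came from separate cultures, so p-values measure only the spread between these libraries, which may be technical.

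Depth was 4384651 to 10032201 counts per library in the stress experiment and 2119071 to 10714175 reads in the 106 libraries whose reads could be recovered from the deposited signal. It is unknown in the other 56. The labelled genotypes were checked first. GAL11 had a signal of 0.66 to 1.05 in med15del libraries, against 78.9 to 83.2 in WT, and SIN4 had 0.13 to 0.17 in med16del, against 23.4 to 25.2 in WT. LEU2 reached 97.9 to 2316 in 16 groups whose label names a LEU2 copy and at most 1.3 in the 38 groups of signal libraries without it, but 0.13 to 0.4 in the libraries labelled Med7_WT, whose label names a LEU2 plasmid. Its comparisons with Med7_EWE3 (2011 to 2316) and med7N_del (0.03 to 0.07) rest on that group. Med7_EWE3 and its control thus differ in LEU2 signal, so the mutation and LEU2 cannot be told apart in that comparison. For med7N_del both groups had next to no LEU2 signal, although the labels differ in the LEU2 plasmid.

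The control regions of ILV5, ILV6, BAT1, BAT2 and LEU1 are shown because the results below turn on these genes. Each line holds 200 bases, from 300 to 101 bases before the start codon, read 5′ to 3′ on the coding strand of the RefSeq R64 assembly. Capitals mark TGACTC, on either strand, and a palindrome of CCG and CGG with 4 free bases between them. Every match of a stricter form, CCGG and CCGG with 2 free bases between them, is also a match of that palindrome. ILV5 lies at chrXII:839354-839553 (minus strand), ILV6 at chrIII:105649-105848 (minus strand), BAT1 at chrVIII:517232-517431 (plus strand), BAT2 at chrX:705444-705643 (plus strand) and LEU1 at chrVII:478753-478952 (minus strand).
ILV5: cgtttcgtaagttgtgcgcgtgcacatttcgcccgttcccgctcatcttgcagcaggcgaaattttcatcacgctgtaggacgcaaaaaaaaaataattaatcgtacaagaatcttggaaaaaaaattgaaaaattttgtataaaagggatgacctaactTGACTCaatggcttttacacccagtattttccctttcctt
ILV6: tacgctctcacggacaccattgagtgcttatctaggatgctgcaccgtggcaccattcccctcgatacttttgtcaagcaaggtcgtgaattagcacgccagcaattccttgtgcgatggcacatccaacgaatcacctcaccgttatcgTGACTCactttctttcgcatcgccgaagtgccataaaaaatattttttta
BAT1: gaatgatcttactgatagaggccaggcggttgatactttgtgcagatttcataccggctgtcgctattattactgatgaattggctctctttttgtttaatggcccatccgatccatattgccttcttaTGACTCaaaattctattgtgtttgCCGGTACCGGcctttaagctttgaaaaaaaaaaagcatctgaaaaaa
BAT2: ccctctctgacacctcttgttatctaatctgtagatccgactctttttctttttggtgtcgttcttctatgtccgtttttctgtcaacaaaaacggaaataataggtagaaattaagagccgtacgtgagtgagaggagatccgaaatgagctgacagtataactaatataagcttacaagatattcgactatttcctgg
LEU1: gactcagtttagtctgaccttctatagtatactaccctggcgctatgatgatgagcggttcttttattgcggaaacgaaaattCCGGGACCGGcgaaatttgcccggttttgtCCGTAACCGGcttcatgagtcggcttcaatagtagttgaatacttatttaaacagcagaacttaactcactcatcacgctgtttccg

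TGACTC was found on either strand in the 300 bases before the start codon of 7 of the 10 genes, the exceptions being ILV2, BAT2 and LEU1, and in 7.89% of all such windows (457 of 5792). The match began 140 bases before the start codon of ILV5, 150 before that of ILV6 and 171 before that of BAT1. The stricter CCGG palindrome was found before BAT1 and LEU1, against 0.155% of all windows (9 of 5792). The looser palindrome, which reads the same on both strands, was found before BAT1, LEU1 and LEU9, against 1.59% of all windows (92 of 5792). LEU1 had 2 matches of it, beginning 217 and 187 bases before its start codon. A match is a description of letters and not a shown binding site, and a missing match says only that these letters are not in this window. The BAT2 window held none of the 3 motifs.

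In control libraries the genes of the shared steps stood highest. Levels between genes were compared as signal per kb of coding length and given as a percentile among all genes, over the control groups of 27 strains. ILV5, the acetohydroxyacid reductoisomerase, had a median percentile of 99.0 (range 97.3 to 99.8) and BAT1, the mitochondrial branched-chain transaminase, 98.1 (90.8 to 99.5). ILV2, the catalytic subunit of acetolactate synthase, had 92.2, its regulatory subunit gene ILV6 had 89.8, and ILV3, the dihydroxyacid dehydratase, 84.8.

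The leucine branch and the entry step stood lower. LEU1, the isopropylmalate isomerase, had a median percentile of 76.8 but ranged from 23.0 in the Med15_Spt7 strain to 96.4 in the Cdk8 strain, the widest range of the 10. LEU4, the main alpha-isopropylmalate synthase, had 73.6, and LEU9, its paralog, 47.8. BAT2, the cytosolic transaminase, had 62.1 and ILV1, the threonine deaminase, 59.6. The ranges over strains overlapped between every pair of neighbours in this order.

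**Figure D1:**
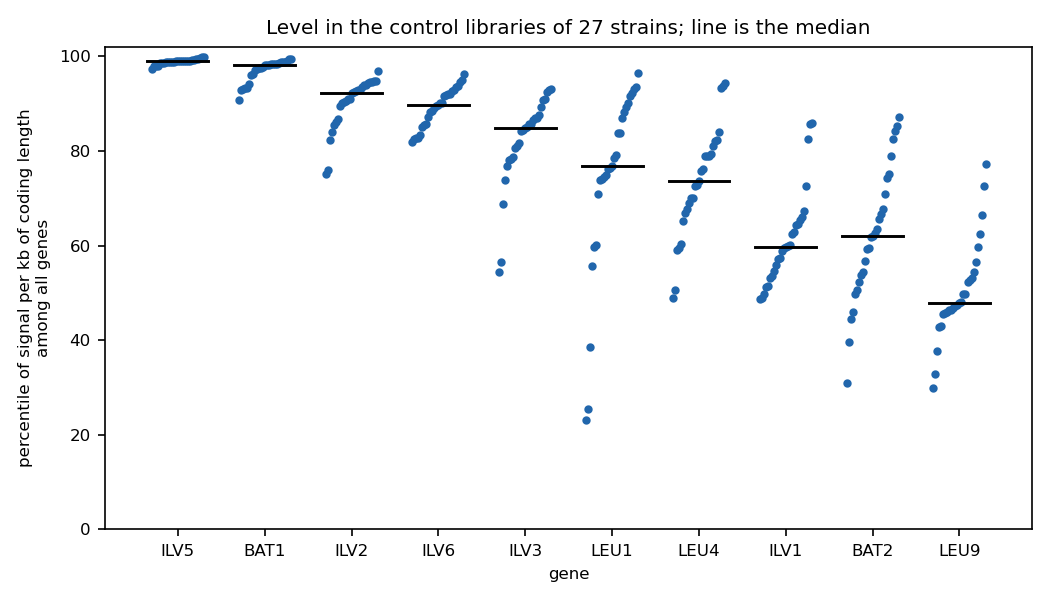
Percentile of each gene's signal per kb of coding length among all genes (vertical axis), with a point for each of 27 control strains, sorted within a gene, and a line at the median. ILV5 and BAT1 lie above 90 in every strain, while LEU1 spreads from 23.0 to 96.4.

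Some control strains carried a LEU2 copy and others did not, which asks whether members differ with leucine prototrophy at the marker. LEU1 averaged 1.13 log2 units above the library median in the 9 strains labelled with LEU2 and 1.84 in the 18 without. The difference was -0.71 ± 0.34 (SE), with a limma p of 0.0451 and an adjusted p of 0.267 over all genes tested. In this limma fit 0 of the 10 members were called and 1 had an unadjusted p under 0.05. Of all genes, 2.13% were called higher and 0.563% lower in strains with LEU2, and TMM scaling also called 0 members. The LEU1 values overlapped, running from -0.65 to 2.67 with LEU2 and from 0.84 to 3.17 without it. Leaving out the strain labelled Med7_WT gave -0.79 (adjusted p = 0.232), and strains without RPB3-3xFlag alone gave -0.30 (adjusted p = 0.999). That last set held 8 strains labelled with LEU2, Med7_WT among them, and 5 without. It did not call LEU2 itself (7.79, limma adjusted p = 0.33), so it cannot decide about LEU1. LEU2 copy and RPB3-3xFlag are largely confounded, as 8 of the 9 strains with LEU2 lack the tag and 5 of the 18 others do.

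Across the 22 degron comparisons, 127 of the changes of members passed an adjusted p of 0.05, of which 15 were rises and 112 were falls. A change was called from limma on log2(signal + 1), with adjustment over all genes tested in that comparison. Fold changes on this scale understate the change of low genes. Many depletions lowered nearly every gene on the deposited scale. The share of all genes called lower ran from 0.165% (Med5) to 99.9% (Med14C and Med15 with Taf1), and that called higher reached 44.6% (Med2 with Med15). Sums over comparisons are thus descriptions and not a trait of the members. Within a comparison, each count of members is set beside the share of all genes called in the same direction. TMM scaling, which assumes that the bulk of genes does not change, gave 57 rises and 39 falls of members.

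**Figure D2:**
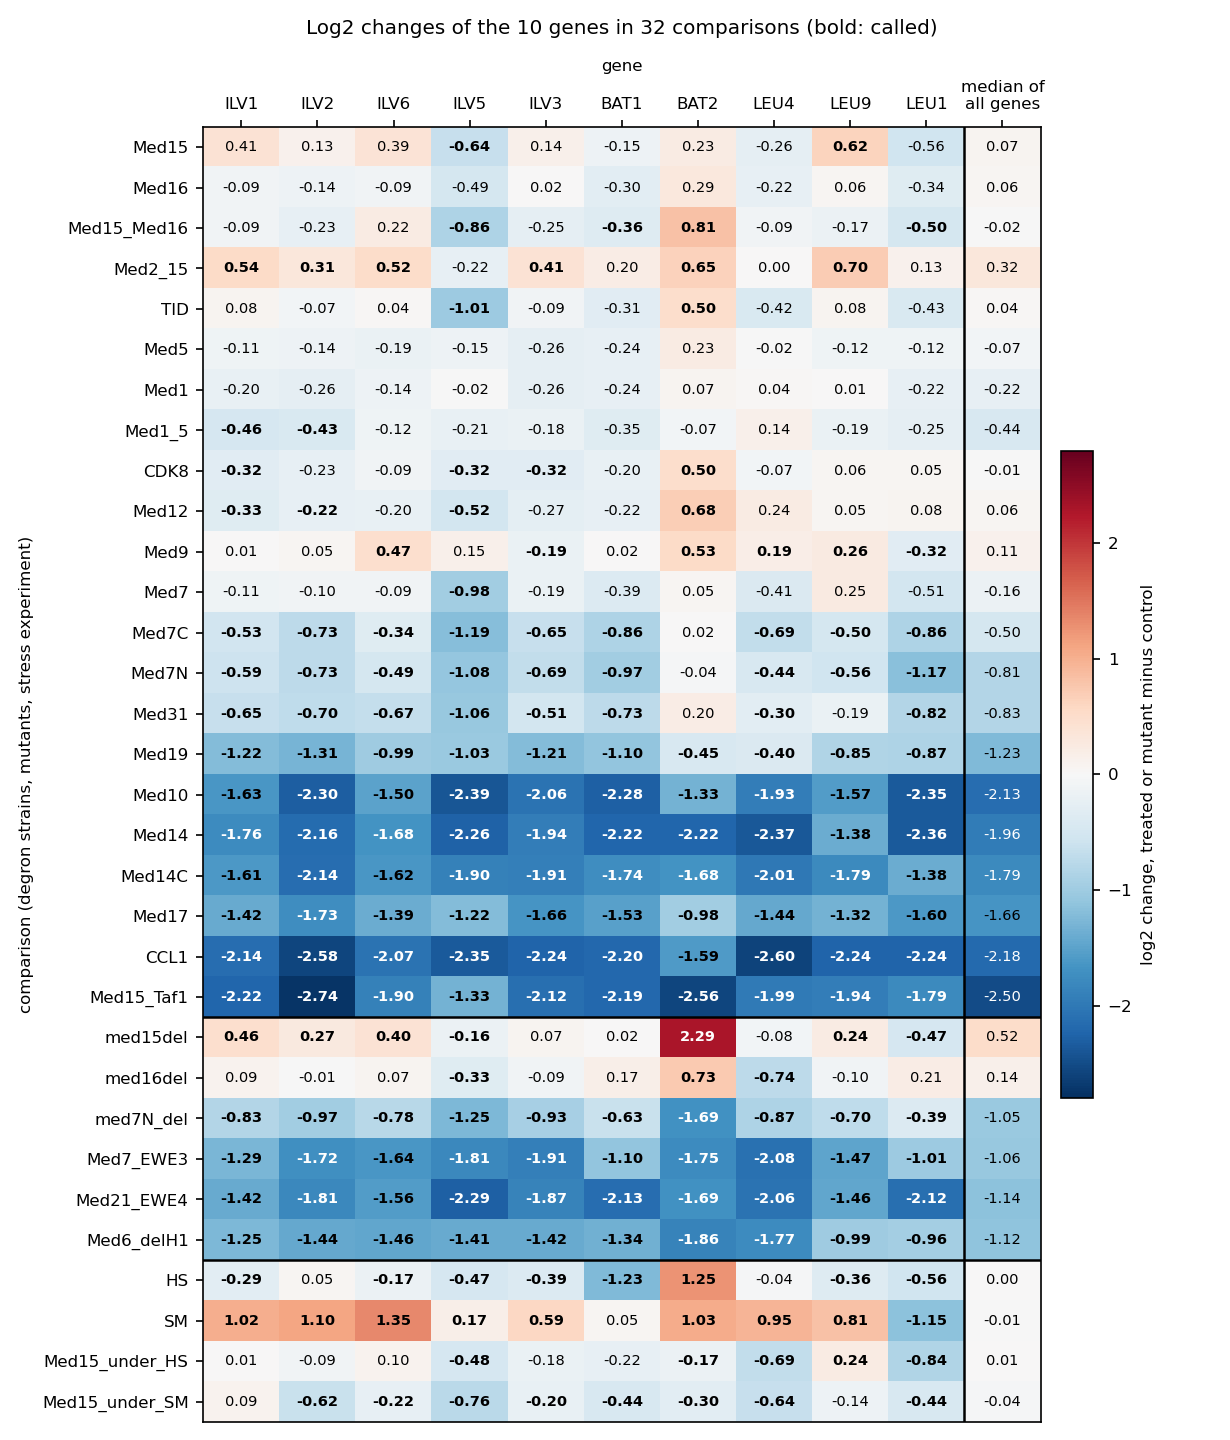
Log2 change of each of the 10 genes (columns, in pathway order) in 32 comparisons (rows), treated or mutant minus control, with called changes in bold and the median of all genes in the last column. ILV5 falls below the median of all genes in 16 of the 22 degron comparisons at the top, and BAT2 lies above it in 20 of them.

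ILV5 and BAT2 lay at opposite ends of the list in many depletions. ILV5 was called lower in 16 of 22 degron comparisons and higher in none, and it had the lowest log2 change of the 10 in 10 of the 22. The calls include strains in which nearly all genes fell. Its change minus the median of all genes had a median of -0.27 and ran from -1.06 to 1.17. BAT2 was called higher in 6 and lower in 7, had the highest log2 change of the 10 in 14, and stood above the median of all genes in 20 of 22, by a median of 0.44. With TMM scaling, ILV5 was called lower in 12 and higher in 3, and BAT2 higher in 12 and lower in none. All 22 comparisons set 3IAA against DMSO, and no group used here without a degron was given 3IAA. A change shared by many strains therefore cannot be told apart from an effect of the compound. In the 6 mutant comparisons, which have no 3IAA group, BAT2 stood below the median of all genes in 4 and above it in 2.

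After depletion of Med15, the tail subunit that many activators contact, limma on the deposited scale called 2 of the 10 genes. Of the 10, 1 was higher (LEU9) and 1 lower (ILV5), where 0.66% of all genes rose and 4.45% fell. Members had a median log2 change of 0.13, against 0.07 for all genes. With TMM scaling ILV1 and LEU9 were called higher and ILV5 and LEU1 lower, where 2.27% of all genes were higher and 6.87% lower.

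At the shared steps, ILV5 had a signal of 404, 436 and 479.7 with 3IAA, against 878, 562 and 647 with DMSO. The 3IAA libraries were all lower and the groups did not overlap. The log2 change was -0.64 ± 0.20 (SE), with a limma adjusted p of 0.0363. The replicate letters paired these samples, and with the letter in the fit the adjusted p was 0.259. The call was also lost without any 3IAA library or without DMSO replicate C, with adjusted p of 0.112 to 0.302, while the log2 change stayed between -0.70 and -0.58. TMM scaling gave -0.71 (adjusted p = 0.00175).

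The other genes of the shared steps were not called after Med15 depletion. ILV2 had 136, 156 and 161 with 3IAA, against 166, 124 and 126 with DMSO, and a log2 change of 0.13 (adjusted p = 0.997). ILV6 had 57.4, 50.2 and 56.4 with 3IAA, against 54.3, 32.9 and 39.7 with DMSO, and a log2 change of 0.39 (adjusted p = 0.41). DMSO replicate A was the highest control library for both, and without it ILV6 was called at 0.58 (adjusted p = 0.00419). ILV3 changed by 0.14 (adjusted p = 0.997) and its groups overlapped. ILV1 had 77.5, 84.2 and 91.5 with 3IAA, against 70.0, 59.2 and 60.3 with DMSO, and a log2 change of 0.41 (adjusted p = 0.322, or 0.0205 at 0.49 without DMSO replicate A). Its 3IAA libraries were all higher.

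In the leucine branch 1 of the 2 isopropylmalate synthase genes was called. LEU9 had 59.0, 59.7 and 67.9 with 3IAA, against 49.8, 34.0 and 37.6 with DMSO, without overlap. It rose by 0.62 ± 0.19 (SE) on the log2 scale (limma adjusted p = 0.0285, or 0.186 with the replicate letter in the fit). That call was lost without any 3IAA library or without DMSO replicate B or C, with adjusted p of 0.0852 to 0.416. LEU4 had a log2 change of -0.26 (adjusted p = 0.805), and its groups overlapped. LEU1 had 82.2, 93.1 and 79.3 with 3IAA, against 166, 117 and 101 with DMSO. All 3IAA libraries were lower, and the log2 change of -0.56 ± 0.19 (SE) had an adjusted p of 0.0671 (0.0375 at -0.71 without DMSO replicate C). BAT1 and BAT2 changed by -0.15 (adjusted p = 0.982) and 0.23 (adjusted p = 0.896), with overlapping groups.

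**Figure D3:**
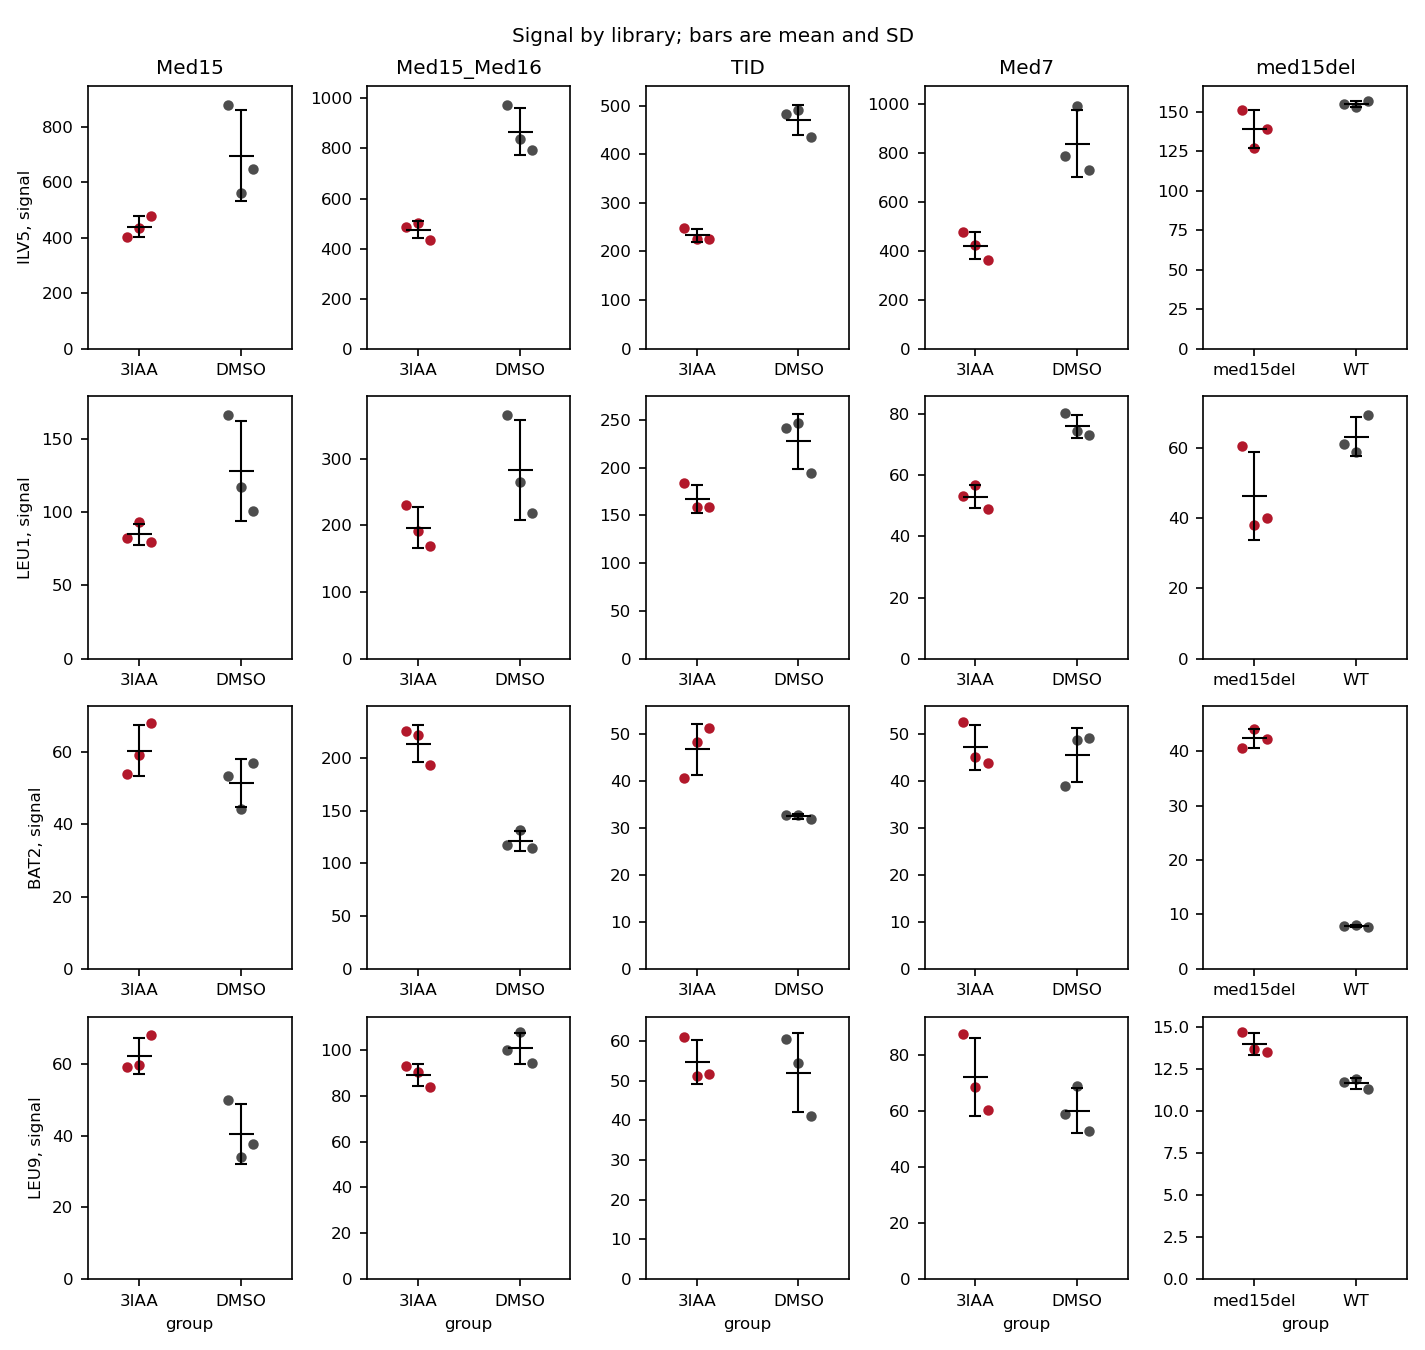
Signal of ILV5, LEU1, BAT2 and LEU9 (rows) in every library of the Med15, Med15_Med16, TID and Med7 degron strains and of med15del, with the depleted or deleted group left of its control; bars are the mean and SD and vertical axes start at 0. ILV5 is lower without overlap in each panel, and BAT2 in med15del stands at 40.6 to 44.1, against 7.72 to 8.12 in WT.

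Depleting Med16 together with Med15 changed 4 of the 10 genes on the deposited scale. BAT2 rose, and ILV5, LEU1 and BAT1 fell, where 11.2% of all genes rose and 15.9% fell. The median over members was -0.20, against -0.02 over all genes. ILV5 had 488, 502 and 436 with 3IAA, against 973, 837 and 792 with DMSO. The groups were far apart, and the log2 change was -0.86 ± 0.13 (SE, limma adjusted p = 4.22e-09). BAT2 had 225, 222 and 193 with 3IAA, against 117, 132 and 115 with DMSO. Every 3IAA library exceeded every DMSO library, and the log2 change was 0.81 ± 0.12 (SE, adjusted p = 9.52e-10).

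LEU1 had 229.9, 191 and 169 in the double depletion, against 365, 265 and 219 with DMSO. These groups overlapped, with DMSO replicate A highest. The log2 change was -0.50 (limma adjusted p = 0.000481), and without that library it was -0.30 (adjusted p = 0.118). BAT1 had 774, 619.8 and 579 with 3IAA, against 925, 847 and 747 with DMSO, with overlap. Its log2 change was -0.36 (adjusted p = 0.0352), and the call was lost without 3IAA replicate B or C or DMSO replicate A or B, at -0.35 to -0.27 with adjusted p of 0.107 to 0.22.

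The remaining 6 genes were not called by limma on the deposited scale in the double depletion. TMM scaling and edgeR on recovered reads, itself TMM-scaled, each called 2 members higher (ILV6 and BAT2) and 6 lower (ILV2, ILV3, ILV5, BAT1, LEU1 and LEU9). Of all genes, 18.4% were higher and 24.6% lower with TMM scaling, and 21.2% and 22.5% by edgeR on recovered reads. Their log2 changes were -0.09 for ILV1, -0.23 for ILV2, 0.22 for ILV6, -0.25 for ILV3, -0.09 for LEU4 and -0.17 for LEU9, with adjusted p of 0.115 to 0.632. The replicate letters paired these samples too, and with the letter in the fit ILV2 (adjusted p = 0.00623), ILV3 (0.00342) and ILV6 (0.0112) were called as well. ILV3 and ILV2 were also called lower without DMSO replicate C, both at -0.31 (adjusted p = 0.0225 and 0.0258). The Med15 strain carries RPB3-3xFlag and the double strain does not, so the tag and Med16 depletion cannot be told apart between them. Their DMSO levels of LEU9 per kb also differed, at percentile 66.5 in the Med15 strain and 49.8 in the double strain. On the deposited scale LEU9 was the member whose change was called different between the double depletion and Med15 depletion alone. That difference was -0.80 ± 0.22 (SE, limma adjusted p = 0.011), where 5.48% of all genes had a lower change and 2.27% a higher change in the double strain. It was -0.73 without Med15 3IAA replicate C and -0.68 without Med15 DMSO replicate B, with adjusted p of 0.0579 and 0.0611. The difference for ILV5 was -0.22 (adjusted p = 0.824) and for BAT2 0.58 (adjusted p = 0.0911). With TMM scaling ILV1 (-0.43, adjusted p = 0.0142) and LEU9 had a lower change in the double strain and BAT2 (0.65, adjusted p = 0.0185) a higher one, where 10.5% and 5.6% of all genes did.

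Med16 depletion alone gave no call by limma, where 1.17% of all genes rose and 1.17% fell. In that fit 1 of the 10 members had an unadjusted p under 0.05. It was ILV5, which had 376, 388 and 358 with 3IAA, against 549.8, 545 and 488 with DMSO. The groups did not overlap, and the log2 change of -0.49 had an adjusted p of 0.246. It was called without DMSO replicate C (-0.55, adjusted p = 0.0171), with the replicate letter in the fit (adjusted p = 0.00145), with TMM scaling (-0.57, adjusted p = 0.00873), and by edgeR on recovered reads, which called 1 member lower and 0 higher where 3.3% of all genes were lower. Its change minus that after Med15 depletion was 0.14 ± 0.30 (SE, adjusted p = 1). Between Med16 and Med15 depletion 0 members had changes called different by limma on the deposited scale, and 1.61% of all genes had a higher and 0.275% a lower change after Med16 depletion. With TMM scaling 2 members had a lower change after Med16 depletion, ILV1 (-0.50, adjusted p = 0.0179) and LEU9 (-0.57, adjusted p = 0.0341), where 1.71% of all genes did.

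In the TID strain, where the tail-interacting part of Med14 was depleted, ILV5 was the single member to fall. It had 248, 225 and 226 with 3IAA, against 484, 492 and 436 with DMSO. All depleted libraries lay far below the controls, and the log2 change was -1.01 ± 0.13 (SE, limma adjusted p = 0.000516), where 4.86% of all genes fell. BAT2 was the single member to rise, where 0.862% of all genes rose. It had 40.6, 48.3 and 51.2 with 3IAA, against 32.7, 32.8 and 31.9 with DMSO, without overlap, and a log2 change of 0.50 (adjusted p = 0.0196). That call was lost without 3IAA replicate B or C or DMSO replicate B (adjusted p of 0.0863 to 0.115) and with TMM scaling (0.46, adjusted p = 0.0571), which gave 0 members higher and 4 lower, where 5.76% of all genes were lower. The replicate letters paired these samples, and with the letter in the fit LEU1 (-0.43, adjusted p = 0.000696) and LEU4 (-0.42, adjusted p = 0.000128) were called lower as well. Without DMSO replicate C both were called too, at -0.54 (adjusted p = 0.024) and -0.56 (adjusted p = 0.0167).

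Depletion of Med2 with Med15 raised 6 of the 10 genes (ILV1, ILV2, ILV6, ILV3, BAT2 and LEU9), where 44.6% of all genes rose and 3.42% fell. The median over members was 0.36, against 0.32 over all genes. LEU9 rose most, with 196, 193 and 205 with 3IAA, against 106, 128 and 132 with DMSO. Its groups did not overlap, and the log2 change was 0.70 (limma adjusted p = 0.00103). ILV5 had 1482, 1334 and 1452 with 3IAA, against 1489, 1587 and 1925 with DMSO, which were all higher, and a log2 change of -0.22 (adjusted p = 0.108). With TMM scaling, which lowered the median of all genes to 0.00, ILV5 was called lower at -0.54 (adjusted p = 0.000697) and LEU4 lower at -0.32 (adjusted p = 0.0416), and 2 members, BAT2 and LEU9, were called higher, where 7.1% of all genes were lower and 3.58% higher.

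BAT2 rose in med15del, while its change after Med15 depletion was not called (0.23, limma adjusted p = 0.896). The control strains differed in BAT2 level per kb. It stood at percentile 50.5 in WT and at 87.1, its highest among the control strains, in the Med15 degron strain given DMSO. The strains also differ in OsTIR. Whether level or strain accounts for the difference between deletion and depletion was not tested. In med15del libraries BAT2 had 40.6, 44.1 and 42.3, against 7.82, 8.12 and 7.72 in WT. The deletion libraries were far above WT, and the log2 change was 2.29 ± 0.07 (SE, limma adjusted p = 1.32e-10), a 4.88-fold difference. WT lay below the filter, a mean signal of 10 over both groups, so BAT2 entered the test through the med15del libraries alone. That also holds for BAT2 in med16del, and without the filter the adjusted p was 6.75e-09 in med15del and 5.39e-05 in med16del. With TMM scaling it was 1.69 (adjusted p = 3.32e-08). The change in med15del exceeded that after Med15 depletion by 2.06 ± 0.20 (SE, adjusted p = 3.41e-12), where 50.7% of all genes had a higher change in med15del and 1.74% a lower one. That difference was 1.53 with TMM scaling, under which 5 members, ILV1, ILV2, ILV6, ILV3 and LEU9, had a lower change in med15del, where 8.36% of all genes were higher and 13.6% lower.

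Of the 10 genes, 5 rose and 2 fell in med15del, where 87.6% of all genes rose and 5.28% fell. The members had a median of 0.16, against 0.52 over all genes, so the calls besides BAT2 are set here beside the TMM values, which reversed most of them. TMM scaling gave 1 member higher and 8 lower, where 15.6% of all genes were higher and 33.7% lower. ILV1 had 26.2, 21.8 and 26.4 in med15del, against 18.6, 17.5 and 17.1 in WT, a log2 change of 0.46 (adjusted p = 0.000224) that was -0.15 with TMM scaling. ILV2 changed by 0.27 (adjusted p = 0.00119), ILV6 by 0.40 (adjusted p = 0.000152) and LEU9 by 0.24 (adjusted p = 0.00712), without overlap of the groups, and with TMM scaling by -0.36, -0.21 and -0.34. LEU1 had 60.6, 38.0 and 40.1 in med15del, against 61.1, 58.9 and 69.3 in WT, which overlap through med15del replicate A. It fell by 0.47 on the log2 scale (limma adjusted p = 0.00709, or 0.0519 at -0.38 without med15del replicate C) and by 1.09 with TMM scaling.

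ILV5 had 151, 127 and 139 in med15del, against 155, 153 and 157 in WT. The deletion libraries were lower without overlap, and the log2 change was -0.16 ± 0.07 (SE, limma adjusted p = 0.0447). That call was lost without med15del replicate B or C or any WT library, at -0.17 to -0.10 with adjusted p of 0.0583 to 0.214, and TMM scaling gave -0.79 (adjusted p = 9.96e-06). ILV3 (0.07, adjusted p = 0.503), BAT1 (0.02, adjusted p = 0.843) and LEU4 (-0.08, adjusted p = 0.367) were not called, and all 3 were called lower with TMM scaling. ILV3 was called higher without med15del replicate B, at 0.20 (adjusted p = 0.0217).

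In med16del, BAT2 rose and LEU4 and ILV5 fell, where 28.9% of all genes rose and 8.82% fell. BAT2 had 15.7, 13.9 and 11.9 in med16del, against 7.82, 8.12 and 7.72 in WT, a log2 change of 0.73 (limma adjusted p = 1.31e-12). LEU4 had 18.7, 15.9 and 13.4, against 27.9, 25.1 and 28.8 in WT, a log2 change of -0.74 (adjusted p = 1.72e-11). Neither gene's groups overlapped, and TMM scaling gave 0.55 and -0.94. ILV5 changed by -0.33 (adjusted p = 0.015), a call lost without med16del replicate B or any WT library (adjusted p of 0.06 to 0.0832). With TMM scaling 1 member was higher and 4 lower, where 13.2% of all genes were higher and 27.2% lower.

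Cdk8 and Med12 both belong to the kinase module, and BAT2 rose and ILV5 fell after depletion of either, as in the TID and Med15_Med16 strains. After Cdk8 depletion 1 member rose and 3 fell, where 7.53% of all genes rose and 4.92% fell. BAT2 had 46.2, 38.4 and 46.6 with 3IAA, against 30.6, 26.6 and 35.0 with DMSO, without overlap and with a log2 change of 0.50 (limma adjusted p = 0.00863). ILV1, ILV3 and ILV5 each fell by 0.32 on the log2 scale (adjusted p of 0.0294 to 0.0381). The calls of ILV1 and ILV5 were lost without any library other than 3IAA replicate A, at -0.34 to -0.24 with adjusted p of 0.0524 to 0.178. ILV3, the lowest by a small margin, had 153, 159 and 145 with 3IAA, against 171, 218 and 183 with DMSO. Its call was lost without 3IAA replicate B or C or DMSO replicate B or C, at -0.35 to -0.21 with adjusted p of 0.0639 to 0.157.

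After Med12 depletion 1 member rose and 3 fell, where 12.5% of all genes rose and 4.84% fell. ILV5 had 221, 205 and 247 with 3IAA, against 328, 333 and 303 with DMSO, and fell by 0.52 on the log2 scale (limma adjusted p = 0.00095). BAT2 had 75.5, 71.1 and 60.0 with 3IAA, against 51.8, 43.4 and 34.0 with DMSO, and rose by 0.68 (adjusted p = 0.0045). Neither gene's groups overlapped. Med9 depletion raised 4 members and lowered 2, where 37.4% of all genes rose and 9.44% fell. There BAT2 had 20.6, 19.7 and 19.5 with 3IAA, against 13.2, 14.6 and 12.8 with DMSO (log2 change 0.53, adjusted p = 8.81e-06), and LEU1 53.2, 50.2 and 54.9, against 64.5, 65.7 and 67.5 with DMSO (-0.32, adjusted p = 0.000284). ILV5 in that strain had 232, 235 and 242 with 3IAA, against 219, 203 and 218 with DMSO, and a log2 change of 0.15 (adjusted p = 0.0527). With TMM scaling 2 members were higher and 2 lower after Med9 depletion, where 23.2% of all genes were higher and 27.4% lower.

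Full-length Med7 depletion lowered ILV5 alone among the 10, where 9.01% of all genes fell and 0.199% rose. ILV5 had 477, 424 and 363 with 3IAA, against 789, 991 and 729.6 with DMSO. The groups did not overlap, and the log2 change was -0.98 ± 0.18 (SE, limma adjusted p = 2.74e-05). LEU1 had 53.3, 56.8 and 49.0 with 3IAA, against 80.2, 74.5 and 73.1 with DMSO, without overlap, and a log2 change of -0.51 (adjusted p = 0.0539, or 0.0248 at -0.54 without DMSO replicate C). In the split-Med7 strains 9 members fell on depletion of the C-terminal part, where 95.2% of all genes fell and 0.177% rose, and 9 on depletion of the N-terminal part, where 99.2% fell and 0.282% rose. BAT2 was the member not called in both, at 0.02 and -0.04. ILV5 fell most in Med7C, by 1.19 on the log2 scale, with 211, 170.3 and 184 with 3IAA, against 462, 392 and 435 with DMSO. LEU1 fell most in Med7N, by 1.17, with 74.8, 70.9 and 60.7 with 3IAA, against 163, 154 and 149 with DMSO.

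TMM scaling gave members called in both directions in the split-Med7 strains. For Med7C it gave 3 members lower and 1 higher, where 14.8% of all genes were lower and 9.15% higher, with ILV5 at -0.66 and BAT2 at 0.53. For Med7N it gave 6 higher and 2 lower, where 21.9% of all genes were higher and 20.2% lower, with BAT2 at 0.79 and LEU1 at -0.32.

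Med1 depletion gave no call among the 10 by limma, where 1.83% of all genes rose and 36.2% fell, and the lowest adjusted p was 0.0579, for ILV2 (0.00308 at -0.31 without DMSO replicate C). Unadjusted p was under 0.05 for 3 members, ILV2, ILV3 and BAT1. TMM scaling called LEU4 higher (0.26, adjusted p = 0.0137), and edgeR on recovered reads called 1 member higher and 0 lower, where 4.55% of all genes were higher. Med5 depletion also gave no call by limma, where 0.536% rose and 0.165% fell. Unadjusted p was under 0.05 for 3 members, ILV6, ILV3 and BAT2, and edgeR on recovered reads called 0, where 1.11% of all genes were higher and 0.111% lower. With the replicate letter, which paired the Med5 samples, ILV3 (-0.26, adjusted p = 0.00586) and BAT1 (-0.24, adjusted p = 0.00298) were called lower. Depletion of Med1 and Med5 together lowered ILV1 and ILV2, where 78.0% of all genes fell and 0.669% rose. ILV1 had 70.1, 77.7 and 54.5 with 3IAA, against 103, 92.0 and 82.1 with DMSO, and a log2 change of -0.46 (limma adjusted p = 0.0063), close to the median of all genes of -0.44. With TMM scaling it was -0.02, and 2 members were called higher and 0 lower, where 3.37% of all genes were higher.

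In 8 further strains nearly all genes fell on the deposited scale, and most members fell too. All 10 fell after depletion of Ccl1 (99.8% of all genes fell), Med10 (99.8%), Med14 (99.7%), Med14C (99.9%), Med17 (99.7%), Med19 (97.7%) and of Med15 with Taf1 (99.9%), and 8 fell in the libraries labelled Med31 (97.3%, with 0.329% higher). The median log2 change of the members was -2.24 after Ccl1 depletion, against -2.18 over all genes, and -2.00 against -2.13 after Med10, -2.19 against -1.96 after Med14 and -1.43 against -1.66 after Med17. These shares of members are near the background of all genes.

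The called member with the deepest fall differed from strain to strain. LEU4 fell by 2.60 on the log2 scale after Ccl1 depletion, with 17.9, 15.4 and 12.5, against 102, 109 and 82.0 with DMSO. LEU4 fell by 2.37 after Med14 depletion as well, with 46.5, 25.3 and 27.0 with 3IAA, against 222, 124 and 172 with DMSO. ILV5 fell by 2.39 after Med10 depletion, with 114, 114 and 102 with 3IAA, against 587, 587 and 561 with DMSO. None of these groups overlapped. ILV2 fell most after depletion of Med14C (by 2.14), Med17 (by 1.73, or 0.00 with TMM scaling), Med19 (by 1.31) and Med15 with Taf1 (by 2.74). ILV5 fell most in the libraries labelled Med31 (by 1.06), which had 283, 255 and 253, against 564, 542 and 547 with DMSO.

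With TMM scaling members were called higher in each of these strains. After Ccl1 depletion 1 was higher and 2 lower, where 36.5% of all genes were higher and 38.1% lower. After Med10 depletion 5 were higher and 1 lower (35.8% and 36.7% of all genes), after Med14C 4 and 2 (33.9% and 31.7%), and in the libraries labelled Med31 4 and 1 (18.2% and 19.9%). Members were called higher and none lower after depletion of Med14 (2, with 29.9% of all genes higher), Med17 (6, with 29.6%) and Med19 (7, with 21.8%). Depletion of Med15 with Taf1 gave 8 members higher and 1 lower with TMM scaling, where 38.4% of all genes were higher and 36.7% lower. ILV5 in that strain had 233, 218 and 224 with 3IAA, against 556, 586 and 557 with DMSO. It fell by 1.33 on the log2 scale, against a median of -2.50 over all genes, and with TMM scaling it was 1.29 higher (adjusted p = 1.6e-10). ILV2 had 31.5, 29.9 and 30.8, against 203, 219.5 and 209 with DMSO, and was the member that fell most.

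Set against Med15 depletion alone, all 10 members had a lower change after depletion of Med15 with Taf1 and after depletion of Med14, where 99.8% and 99.4% of all genes had one. For Med15 with Taf1 the difference was -2.87 ± 0.20 for ILV2 and -0.69 ± 0.22 for ILV5 (SE, limma adjusted p = 8.9e-26 and 0.00225), against a median of -2.56 over all genes. For Med14 it was -2.45 ± 0.25 for BAT2 and -1.62 ± 0.25 for ILV5 (SE, adjusted p = 2.85e-15 and 2.69e-09), against a median of -2.02. With TMM scaling the ILV5 differences were 1.99 and 0.53, above 0 in both. TMM scaling called 5 members higher for Med15 with Taf1 and 1, ILV5, for Med14, where 26.2% and 19.4% of all genes had a higher change. Unlike the Med15 strain, the Med15_Taf1 strain is labelled with a LEU2 copy and lacks RPB3-3xFlag, and their part in these differences was not tested.

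The mutants of the middle and head modules lowered all 10 genes on the deposited scale. That held for med7N_del (99.0% of all genes fell), Med7_EWE3 (97.0%), Med21_EWE4 (98.3%) and Med6_delH1 (99.8%). In Med7_EWE3 and Med21_EWE4 the members' medians of -1.68 and -1.84 lay below those of all genes, -1.06 and -1.14. This was not particular to the members. Listed genes of histidine, arginine, aromatic and lysine synthesis had medians of -1.73 and -1.51, and those of threonine supply and use -1.65 and -1.74. Listed regulators and carriers (-1.09 and -1.28) and genes of keto acid use (-0.78 and -1.26) fell less. With TMM scaling 8 members were still lower and 0 higher in Med7_EWE3, where 26.7% of all genes were lower, and 7 lower and 0 higher in Med21_EWE4, where 8.83% were lower. LEU4 fell most in Med7_EWE3, with 30.5 and 32.3, against 154, 129 and 126 in the libraries labelled Med7_WT. Its log2 change was -2.08 ± 0.13 (SE, limma adjusted p = 2.86e-10), or -1.03 with TMM scaling. The groups also differ in LEU2 signal, so the mutation and LEU2 cannot be told apart here.

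ILV5 fell most in Med21_EWE4, with 147 and 149.9, against 751 and 714 in Med21_WT, a log2 change of -2.29 ± 0.22 (SE, limma adjusted p = 9.82e-24), or -1.14 with TMM scaling. The 2 libraries of each group were close together and far from the other group. In med7N_del and Med6_delH1, BAT2 fell most. It had 8.88, 8.68 and 8.42 in med7N_del, against 30.7, 31.2 and 28.3 in the libraries labelled Med7_WT, a log2 change of -1.69 (-0.66 with TMM scaling). BAT2 passed the filter through the Med7_WT libraries alone there and in Med7_EWE3. It had 13.8, 13.5 and 11.4 in Med6_delH1, against 55.0, 53.3 and 41.1 in Med6_WT, a log2 change of -1.86 (-0.73 with TMM scaling). In med7N_del TMM scaling gave 5 members higher and 1 lower, where 19.4% of all genes were higher and 16.5% lower. In Med6_delH1 it gave 0 higher and 4 lower, where 9.46% of all genes were lower.

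The SM stress, with Med15 present, raised 8 of the 10 genes and lowered LEU1. Counts were tested here with edgeR's quasi-likelihood test and are given as TMM-scaled CPM, and 26.4% of all genes rose and 26.2% fell. The members' median log2 change was 0.88, against -0.01 over all genes. All 24 of the listed histidine, arginine, aromatic and lysine synthesis genes rose too, with a median of 1.39. Among them ARG3, the ornithine carbamoyltransferase, had 472, 429 and 451 CPM under SM, against 94.9, 85.9 and 82.0 without stress, and rose by 2.36 on the log2 scale. HIS4 rose by 1.96.

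At the first steps of the pathway, ILV6 had 1199, 1167 and 1157 CPM under SM, against 469.7, 443 and 463 without stress. The stressed libraries were all above the controls, and the log2 change was 1.35 ± 0.07 (SE, edgeR adjusted p = 1.17e-11). Its partner ILV2 had 1802, 1779.8 and 1812 CPM, against 809.6, 862 and 839 without stress, a log2 change of 1.10 (adjusted p = 1.65e-10). ILV1 had 484, 506 and 503 CPM, against 253, 257 and 225, a log2 change of 1.02 (adjusted p = 1.03e-09). None of these groups overlapped.

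At the later shared steps ILV3, ILV5 and BAT2 rose under SM and BAT1 was not called. ILV3 had 912, 921 and 912 CPM, against 602, 594 and 621 without stress, a log2 change of 0.59 (edgeR adjusted p = 1.72e-06). ILV5 had 2069, 2146 and 2004 CPM, against 1874, 1848 and 1776, without overlap but with a log2 change of 0.17 (adjusted p = 0.0294). The ILV5 call was lost without SM replicate A or B or without unstressed replicate B or C, with adjusted p of 0.0581 to 0.103. BAT1 had 2188, 2197 and 2116 CPM under SM, against 1975, 2168 and 2107, with overlap and a log2 change of 0.05 (adjusted p = 0.688). BAT2 had 424, 454 and 411 CPM, against 200.4, 214 and 215, and rose by 1.03 (adjusted p = 7.98e-10).

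In the leucine branch LEU4 and LEU9 rose and LEU1 fell under SM. LEU4 had 899.5, 919.6 and 925 CPM, against 472, 474 and 468 without stress, and rose by 0.95 ± 0.05 on the log2 scale (SE, edgeR adjusted p = 1.96e-11). LEU9 had 246, 252 and 253 CPM, against 145, 132 and 150.3, and rose by 0.81 (adjusted p = 1.28e-07). LEU1, whose enzyme works on the product of those synthases, had 579, 641 and 403 CPM, against 1139, 1241 and 1215. It fell by 1.15 ± 0.15 (SE, adjusted p = 3.87e-06), and its stressed libraries spread more widely than those of LEU4. Among the listed regulators and carriers 4 rose and 1 fell: LEU3 rose by 0.69 and GCN4 by 0.54, and GDH1, the NADP-dependent glutamate dehydrogenase and a known Leu3 target, had 86.8, 105 and 76.8 CPM under SM, against 329, 359 and 300.1 without stress.

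**Figure D4:**
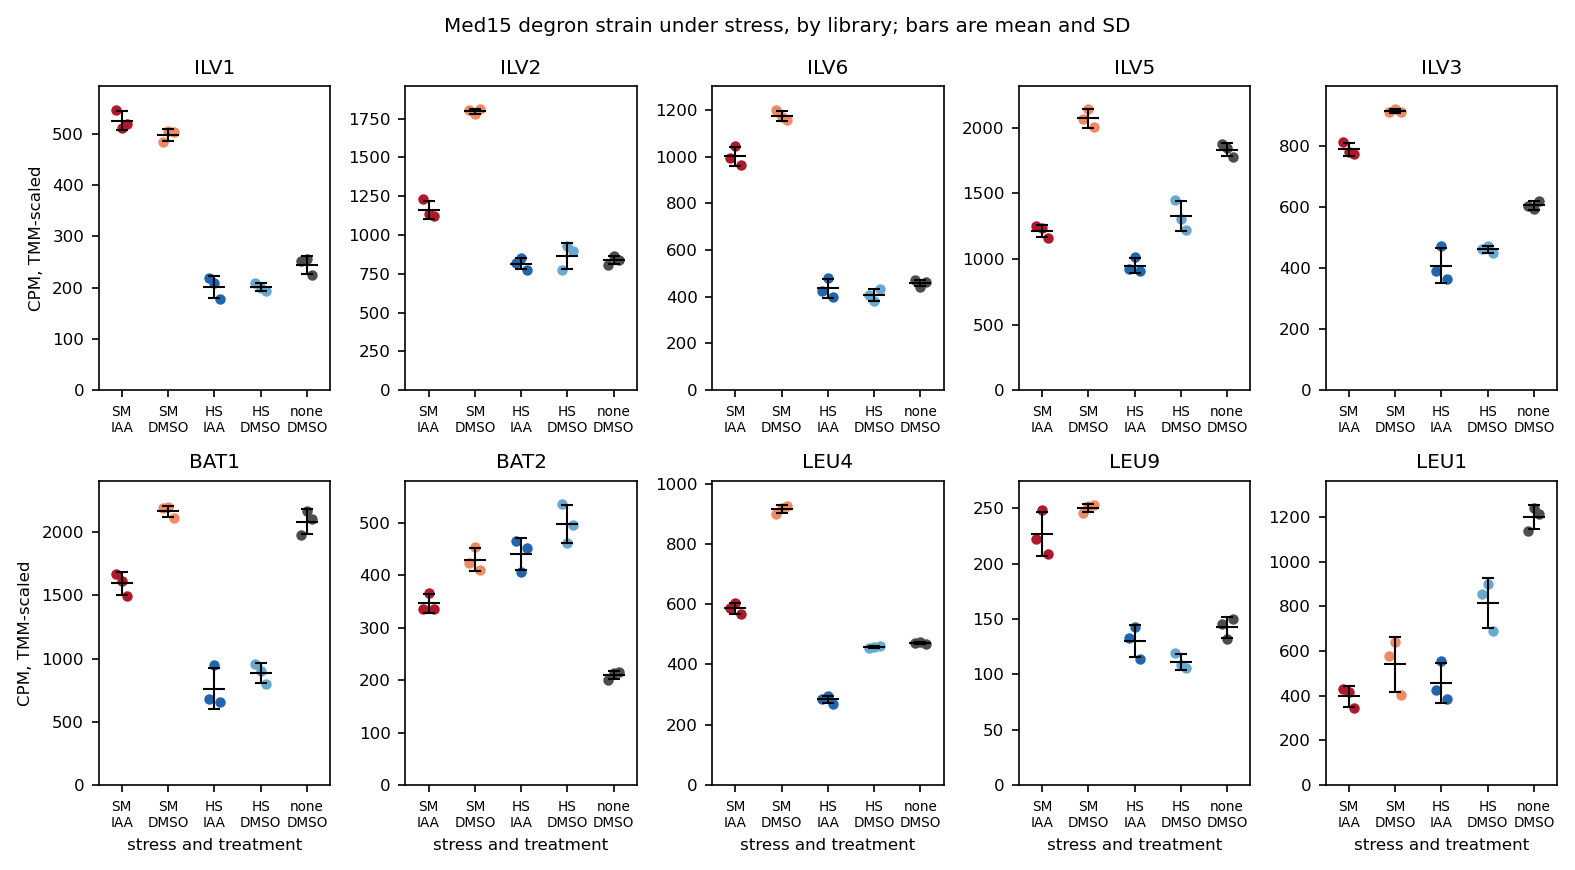
TMM-scaled CPM of each of the 10 genes in every library of the Med15 degron strain under SM, under HS and without stress; the bar is the mean and SD, IAA stands left of DMSO, and the unstressed DMSO group is at the right. ILV6, ILV2, LEU4 and others stand higher under SM than without stress, LEU1 stands lower, and BAT1 and BAT2 part under HS.

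Further listed genes around the pathway moved under SM. GDH1 fell by 1.89 on the log2 scale (edgeR adjusted p = 5.48e-11). Of 6 genes of threonine supply and use, 5 rose and 1 fell, HOM3 (aspartate kinase) by 1.37 and HOM2 by 1.09. Of 8 genes of keto acid use, 3 rose and 1 fell. ARO10, a keto acid decarboxylase, had 267, 319.5 and 392 CPM under SM, against 11.9, 15.8 and 10.9 without stress, and rose by 4.64 (adjusted p = 1.82e-11). PDC1, the main pyruvate decarboxylase, fell by 0.32 (adjusted p = 0.00964).

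Under HS 7 members fell and BAT2 rose, where 37.6% of all genes fell and 36.9% rose. The members' median was -0.32, against 0.00 over all genes. BAT1 fell and BAT2 rose. BAT1 had 961, 899 and 803 CPM under HS, against 1975, 2168 and 2107 without stress, a log2 change of -1.23 ± 0.10 (SE, edgeR adjusted p = 6.85e-09). BAT2 had 536, 462 and 496 CPM, against 200.4, 214 and 215, a log2 change of 1.25 ± 0.07 (SE, adjusted p = 3.25e-11). Neither gene's groups overlapped. ILV2 (0.05, adjusted p = 0.503, or 0.032 at 0.15 without HS replicate A) and LEU4 (-0.04, adjusted p = 0.43) were not called. SM and HS share the unstressed libraries, and LEU1 was lower than those under both, by 1.15 under SM and by 0.56 under HS.

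Med15 depletion under SM lowered 8 of the 10 genes and raised none, where 27.1% of all genes fell and 21.0% rose. The members' median was -0.37, against -0.04 over all genes, and the replicate letters paired these libraries. ILV5 fell furthest, with 1248, 1234 and 1159 CPM with IAA, against 2069, 2146 and 2004 with DMSO. The groups were well apart, and the log2 change was -0.76 ± 0.06 (SE, edgeR adjusted p = 1.78e-08). ILV2 had 1229.8, 1134 and 1119 CPM, against 1802, 1779.8 and 1812 with DMSO, a log2 change of -0.62 (adjusted p = 3e-07). LEU4 had 586, 605 and 566 CPM, against 899.5, 919.6 and 925, a log2 change of -0.64 (adjusted p = 4.02e-09). Depletion without stress was tested with limma on signal, so its number of calls cannot be set directly against the 8 under SM.

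Smaller falls under SM were seen for 5 further members. BAT1 had 1671, 1618 and 1496 CPM with IAA, against 2188, 2197 and 2116 with DMSO (log2 change -0.44, edgeR adjusted p = 0.00199). BAT2 had 336, 367 and 336 CPM, against 424, 454 and 411 (-0.30, adjusted p = 0.00108), and ILV6 995, 1045 and 965 CPM, against 1199, 1167 and 1157 (-0.22, adjusted p = 0.00824). Groups did not overlap for these 3 genes. LEU1 had 429.6, 417 and 343 CPM, against 579, 641 and 403, which overlapped (-0.44, adjusted p = 0.0191). ILV3 had 814, 780.2 and 775 CPM, against 912, 921 and 912, which did not (-0.20, adjusted p = 0.0214). The LEU1 call was lost without IAA replicate C (-0.35) or DMSO replicate A (-0.39) or B (-0.30), with adjusted p of 0.0694 to 0.123, and the ILV3 call without IAA replicate B or C or DMSO replicate B, with adjusted p of 0.0536 to 0.068.

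ILV1 and LEU9 were not called under SM. ILV1 had 547, 511 and 520.1 CPM with IAA, against 484, 506 and 503 with DMSO (0.09, adjusted p = 0.283), and LEU9 222, 248 and 209 CPM, against 246, 252 and 253 (-0.14, adjusted p = 0.142). Of the 24 listed genes of other amino acids, 12 fell and 4 rose, with a median of -0.14. ARG3 had 32.4, 31.0 and 36.6 CPM with IAA, against 472, 429 and 451 with DMSO, a fall of 3.75 on the log2 scale, and ARG1 fell by 1.16. Of 8 genes of keto acid use, 3 rose and 2 fell, with a median of 0.10, where 21.0% of all genes rose and 27.1% fell. PDC1, in that list, fell by 2.06. LEU3 rose by 0.68, while BAP2, a branched-chain amino acid permease, fell by 0.63 and GCN4 by 0.41.

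Under HS, Med15 depletion lowered 4 members (LEU1, LEU4, ILV5 and BAT2) and raised LEU9, where 19.1% of all genes fell and 15.8% rose. LEU1 had 426, 555 and 386 CPM with IAA, against 856, 901 and 688 with DMSO, without overlap, a log2 change of -0.84 (edgeR adjusted p = 0.000191). LEU4 fell by 0.69 and ILV5 by 0.48. BAT2 changed by -0.17 (adjusted p = 0.0491), and with the replicate letter, which paired these libraries, its adjusted p was 0.0573. That call was also lost without IAA replicate B or C or DMSO replicate A or C, at -0.19 to -0.12 with adjusted p of 0.0573 to 0.215. LEU9 had 133, 143 and 114 CPM, against 119, 108 and 106, with overlap (0.24, adjusted p = 0.0329), and its call was lost without IAA replicate A or B or DMSO replicate B or C, at 0.16 to 0.22 with adjusted p of 0.0842 to 0.182.

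After Med15 depletion 4 members had a lower change under SM than under HS, where 14.5% of all genes had a lower and 14.0% a higher change under SM. The difference was -0.54 ± 0.09 (SE) for ILV2 (edgeR adjusted p = 0.000295), -0.32 for ILV6 (adjusted p = 0.0156), -0.37 for LEU9 (adjusted p = 0.0185) and -0.28 for ILV5 (adjusted p = 0.0259). Under HS alone LEU9 changed by 0.24 and ILV6 by 0.10 (adjusted p = 0.286). The ILV6 call was lost without HS IAA replicate B (-0.22), that of LEU9 without HS IAA replicate B (-0.29) or SM IAA replicate C (-0.32), and that of ILV5 without any of 5 libraries, HS DMSO replicate B or C, SM DMSO replicate B, HS IAA replicate B or SM IAA replicate C, at -0.27 to -0.22. For LEU4 the difference was 0.05 ± 0.07 (SE, adjusted p = 0.599). For LEU1 the difference was 0.40 (adjusted p = 0.164), and with the replicate letter in the fit its adjusted p was 0.0275.

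Other amino acid genes were also read after Med15 depletion without stress and in med15del. ARG3 had 3.09, 3.88 and 4.08 with 3IAA, against 16.8, 21.4 and 20.3 with DMSO, a log2 change of -2.13. ARG3 passed the filter on low signal through the DMSO libraries alone. It stands within a list of 24 other amino acid synthesis genes. Of these, 3 rose and 1 fell, where 0.66% of all genes rose and 4.45% fell. PDC1 fell by 1.69, ARO10 by 1.11 and BAP2 by 0.80 (limma adjusted p = 0.00124). In med15del, 14 of 20 such genes tested rose and 3 fell, where 87.6% of all genes rose and 5.28% fell, and GDH1 rose to 47.2, 56.8 and 43.5, against 15.8, 16.5 and 19.3 in WT, a log2 change of 1.46. With TMM scaling 4 of those 20 genes were higher and 12 lower, where 15.6% of all genes were higher and 33.7% lower.

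Over the 22 degron comparisons, the changes of some members ran alongside each other more than others. The Pearson correlation of changes, each minus its comparison's median of all genes, was 0.88 between ILV5 and BAT1, 0.82 between BAT1 and LEU1, 0.78 between ILV5 and LEU1 and 0.77 between ILV1 and ILV6. It was -0.27 between ILV2 and LEU1. These are descriptions over 22 comparisons whose libraries are shared by all genes. Among 3247 genes tested in all 22, the non-members whose changes were most like the members' mean were YHP1 (0.83), ARO1 (0.83), CPA1 (0.82), IZH3 (0.82) and MAF1 (0.80), of which ARO1 encodes the pentafunctional aromatic synthesis enzyme and CPA1 a subunit of carbamoyl phosphate synthetase.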

How the data were processed

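Newly made RNA, labelled with 4-thioU, was measured in 177 libraries of 60 groups. Per the submitters' processing notes, reads were handled with Bowtie2 and HTSeq and the builds sacCer3 and ASM294v2 were named. Tool versions and the role of each build are not given in the sources used here. The authors deposited gene counts for the 15 libraries of the stress experiment. For the other 162 libraries the authors deposited normalized values per gene, used here as signal, and how they were scaled is not given in the sources used here.

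Groups came from the labels. Signal was filtered at a mean of 10 over the groups compared and tested with limma 3.58.1 on log2(signal + 1) in R 4.3.3. Counts were tested with edgeR 4.0.16 (quasi-likelihood, TMM scaling), with DESeq2 1.42.0 as an alternative. Benjamini-Hochberg adjustment ran over all genes tested, and an adjusted p under 0.05 was a call. Whole reads were recovered for 106 libraries, where at least 96.52% of low values were whole within 0.1 of a step. Each of the 11 comparisons of such libraries was also tested with edgeR on these reads, again with TMM scaling. Replicate letters were taken to pair samples where every pair's deviations correlated above 0.1, which held in 15 of 32 comparisons. No library pair held identical values, and the fits were tested on simulated data.

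The members and gene lists were chosen with earlier results of these data known. All 10 members were named with test values in Med15, Med15_Med16, med15del, SM and Med15 depletion under SM. In each other comparison the called members with the largest rise and fall were named, and further members were added after their values were seen. From each pathway list at most 3 called genes were named in 4 comparisons, and the 5 non-members most like the members. A listed gene that this rule would name is not reported here. Other lists held 6 regulators and carriers, 6 genes of threonine supply and use, 8 of keto acid use and 24 of other amino acids.

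The alternatives tried were TMM scaling of signal, a pseudocount of 10, no filter, the replicate letter as a block, leaving out each library and fitting only the 2 groups compared.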

Additional observations from a re-analysis of the deposited data

Results flagged for a closer look

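The change after Med15 depletion under SM minus that under HS was -0.54 for ILV2, -0.28 for ILV5, -0.32 for ILV6 and -0.37 for LEU9 on the log2 scale. Each of the 4 differences passed the edgeR test of the difference itself, where 14.5% of all genes had a lower change under SM.

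LEU9 changed by -0.80 more in the double depletion of Med15 and Med16 than after Med15 depletion alone, a difference that passed the limma test where 5.48% of all genes did so in that direction. BAT2 had a change in med15del that exceeded the one after Med15 depletion by 2.06, against a median difference of 0.48 over all genes. The change of BAT2 after Med15 depletion was itself not called. The control strains differed in BAT2 level, at percentile 50.5 in WT and 87.1 in the Med15 degron strain given DMSO.

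All 10 members had a different change after depletion of Med15 with Taf1 than after Med15 depletion alone, as did 99.8% of all genes in the same direction. The differences were -2.64 for ILV1, -2.87 for ILV2, -2.25 for ILV3, -0.69 for ILV5, -2.29 for ILV6, -2.03 for BAT1, -2.78 for BAT2, -1.24 for LEU1, -1.73 for LEU4 and -2.56 for LEU9. After Med14 depletion, set against Med15 depletion, they were -2.17 for ILV1, -2.29 for ILV2, -2.08 for ILV3, -1.62 for ILV5, -2.06 for ILV6, -2.06 for BAT1, -2.45 for BAT2, -1.80 for LEU1, -2.11 for LEU4 and -2.00 for LEU9, where 99.4% of all genes had a lower change.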

How the results depend on the processing

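With TMM scaling, degron comparisons gave 57 members called higher and 39 lower (15 and 112 as deposited), and tests of differences gave 8 higher and 13 lower (1 and 25). In the 10 degron strains with recovered reads, edgeR, which also scales by TMM, called 19 members higher and 15 lower (8 and 27 as deposited). Among the 131 member values followed under every alternative, those that turned sign with TMM scaling were ILV2 in Med17 (0.00), ILV5 in Med15_Taf1 (1.29), BAT2 in Med7N (0.79), and in med15del those of ILV6 (-0.21), ILV1 (-0.15), BAT1 (-0.61), ILV3 (-0.55), ILV2 (-0.36) and LEU9 (-0.34). Differences of Med15_Taf1 from Med15 became 0.36 for ILV6, 1.37 for LEU1, 0.63 for BAT1, 0.38 for ILV3, 1.99 for ILV5, 0.90 for LEU4 and 0.04 for LEU9. Those of Med14 from Med15 became 0.03 for ILV6, 0.29 for LEU1, 0.03 for BAT1, 0.05 for ILV3, 0.53 for ILV5, 0.01 for LEU4 and 0.10 for LEU9. TMM scaling sets the centre of all genes near 0 by its construction.

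Over all genes, edgeR on recovered reads called 907 in CDK8 (572 by limma on the deposited scale), 353 in Med1 (1787), 66 in Med5 (34), 247 in Med1_5 (3761), 575 in Med2_15 (2469), 2419 in Med15_Med16 (1380), 285 in Med16 (114), 2066 in Med19 (4396), 1955 in Med31 (4455) and 657 in Med21_EWE4 (4382). The edgeR fit also scales by TMM, so scaling, test and filter all differ here. Limma with TMM scaling called 852 in CDK8, 321 in Med1, 37 in Med5, 214 in Med1_5 and 549 in Med2_15. It called 2185 in Med15_Med16, 266 in Med16, 1834 in Med19, 1740 in Med31 and 612 in Med21_EWE4.

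With the replicate letter as a block, the members called were 142 in degron (127 without), 48 in mutant (50), 29 in stress (30) and 27 in difference (26) tests, of which 2 differences were higher (1). In paired comparisons it changed no call of a member other than those given in the report. A pseudocount of 10 gave 2 differences called higher. Leaving out 1 library gave 115 to 136 members called in degron comparisons, 2 to 4 between SM and HS, 0 to 3 between Med15_Med16 and Med15, and 1 to 2 between med15del and Med15. Of 938 named member values without 1 library, 70 lost their call, 12 gained one and 0 that were called changed sign, while 10 member values that were not called could change sign. Among the named member values, DESeq2 changed none of 30 calls, and leaving out the filter lost 3 of 105. Over all 10 members, DESeq2 called 5 lower after Med15 depletion under HS, against 4 by edgeR. All 10 members passed the filter in all 32 comparisons, and 6 of those tests had 1 group below it (BAT2 in 5 and LEU9 in CCL1). Depth is unknown for 56 libraries, so their precision rests on replicates alone.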

Other observations

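Levels in control libraries differed between strains for several genes of amino acid synthesis. In the Med7, Med15 and Med14 degron strains given DMSO, GCN4, the activator of amino acid synthesis genes, had a log2 level of 2.33, 2.37 and 2.43 above the library median, and at most 1.67 in the other control strains. ILV5 had 4.94, 4.74 and 4.48 in the same strains and at most 3.85 in the others. LEU4 had 2.60, 2.38 and 2.42, and at most 1.70 in the others. Not all members stood high in these strains. BAT1 had 1.82, 1.84 and 1.46 there and up to 3.95 in the others, and LEU1 had 1.51, 2.30 and 1.42, within the range of the others. LEU1 was lowest in the Med15_Spt7 strain at -0.65 and in the Med15_Taf1 strain at -0.51, and highest in the Cdk8 strain at 3.17. These strains were singled out after their values were seen, and no test was run between them.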
